A study of Mus musculus with 6 samples.

Results

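The introns described here are short introns with low retention, 701 in number, which stayed in a small share of the transcripts of mouse macrophages. They were chosen from the deposited JuncBASE table, which classifies splicing events from sequencing reads, as retained introns that had a level in every one of 6 libraries, a mean over the 6 of under 25% and a length under 300 nucleotides (nt). The retention level is the percent of transcripts, as JuncBASE estimates it, that keep the intron. The table holds 10376 splicing events, of which 3305 are retained introns, and 1992 of these have a level in all 6 libraries. The mean level chose the introns, so that their low level is a description, whereas the rule did not use the difference between groups.

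The libraries came from bone marrow-derived macrophages, which are grown from marrow cells in medium with supernatant of L929 cells, a source of macrophage growth factor. The mice were wild-type C57BL/6, either kept in room air or exposed to cigarette smoke, and the cultures were harvested on day 11, with 3 libraries per group. The question is whether exposing the animal leaves a mark on macrophages that were then grown outside it. The dose and length of the exposure and the age of the mice are not given in the sources used here. The labels number the libraries without saying how many mice each one holds, so p-values measure only the spread between these libraries.

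Intron retention is the form of alternative splicing in which an intron stays in the mature transcript. A retained coding intron often brings a stop codon into the reading frame, and such transcripts are commonly held in the nucleus or degraded, so that retention can lower the amount of protein made from a gene. Changes of intron retention are known from the differentiation of blood cells and from the activation of macrophages.

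The sequences of 12 of the introns are given, out of those that could be read from an annotated transcript. Except for Slc27a1, which is among the 3 shortest, they are among the introns with the lowest p or the largest difference. Lower and higher levels after smoke were ranked separately. Rpp21 and Rgs19 ranked high only among the 48 introns with a higher mean, and their groups overlapped. Introns without such a transcript, as in Sgcb and Nr1h2, could not be read. Each sequence is the whole intron, read 5′ to 3′ from an annotated transcript that keeps it (GENCODE M21, GRCm38). Capitals mark the first 2 and the last 2 bases, which are GT and AG in all 12, and the first stop codon in the frame of the exon before the intron. In Aurkb, Trmt2a and Actr1b that stop begins at base 2 and shares its T with the GT, and in Slc27a1 it shares its AG with the end of the intron.
Mpdu1 (chr11:69657844-69657935, minus strand): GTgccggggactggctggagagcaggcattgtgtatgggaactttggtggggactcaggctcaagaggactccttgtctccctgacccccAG
Aurkb (chr11:69048042-69048173, plus strand): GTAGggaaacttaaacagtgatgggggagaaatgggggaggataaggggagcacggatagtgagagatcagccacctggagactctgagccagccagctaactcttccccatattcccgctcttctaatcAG
Plod3 (chr5:136990277-136990417, plus strand): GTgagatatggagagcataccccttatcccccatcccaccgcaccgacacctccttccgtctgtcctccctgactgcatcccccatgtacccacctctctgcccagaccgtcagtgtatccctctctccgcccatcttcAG
Ngdn (chr14:55021479-55021555, plus strand): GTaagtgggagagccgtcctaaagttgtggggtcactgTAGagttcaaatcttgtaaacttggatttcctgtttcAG
Rasa4 (chr5:136101395-136101624, plus strand): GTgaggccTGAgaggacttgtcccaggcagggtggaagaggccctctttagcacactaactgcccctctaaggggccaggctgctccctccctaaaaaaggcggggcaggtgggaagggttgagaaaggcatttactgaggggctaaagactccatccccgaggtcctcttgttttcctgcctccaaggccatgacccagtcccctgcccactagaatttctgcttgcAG
Trmt2a (chr16:18251475-18251548, plus strand): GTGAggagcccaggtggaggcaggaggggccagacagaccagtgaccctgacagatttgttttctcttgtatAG
Actr1b (chr1:36701902-36702058, minus strand): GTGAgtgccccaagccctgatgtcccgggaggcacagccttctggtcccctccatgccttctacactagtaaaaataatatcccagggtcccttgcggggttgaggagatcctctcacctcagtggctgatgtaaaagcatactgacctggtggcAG
Tecpr1 (chr5:144217026-144217225, minus strand): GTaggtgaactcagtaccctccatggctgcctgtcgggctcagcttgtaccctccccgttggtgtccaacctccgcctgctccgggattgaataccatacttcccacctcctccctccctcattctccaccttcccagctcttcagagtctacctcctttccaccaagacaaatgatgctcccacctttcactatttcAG
Pip4p1 (chr14:50929059-50929201, minus strand): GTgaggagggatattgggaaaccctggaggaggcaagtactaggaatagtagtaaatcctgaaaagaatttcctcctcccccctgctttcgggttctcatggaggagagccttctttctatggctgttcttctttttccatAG
Rpp21 (chr17:36257707-36257782, minus strand): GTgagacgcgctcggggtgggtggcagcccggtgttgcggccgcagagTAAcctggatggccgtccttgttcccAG
Rgs19 (chr2:181689296-181689376, minus strand): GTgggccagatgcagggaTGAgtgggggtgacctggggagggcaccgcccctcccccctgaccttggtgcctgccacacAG
Slc27a1 (chr8:71580702-71580766, plus strand): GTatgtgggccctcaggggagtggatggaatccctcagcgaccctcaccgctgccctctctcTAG
The introns of Mpdu1, Plod3, Tecpr1 and Pip4p1 hold no stop in that frame. Of these 4, the Plod3 intron of 141 nt has a length that is a multiple of 3.

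The same features were counted over the 366 of the 701 introns whose sequence could be read from an annotated transcript. GT and AG stood at the ends of 365 of them, and the exception, in Dpep2, began with TT. The median GC content was 55.0%, against 55.4% in 5179 other annotated coding introns of under 300 nt that were read in the same way. Splice sites were scored in bits against base frequencies at annotated introns, and the median score was 7.59 bits at the 5′ site and 9.12 bits at the 3′ site, against 7.69 and 8.61 bits in the 5179. An in-frame stop was present in 274 of 341 introns with a known frame (80.4%), against 77.1% of the others, and began at a median position of 27.5 against 33. Lengths that are multiples of 3 made up 31.7% against 34.1%, and 22 introns combined such a length with no stop. These are descriptions, since introns held in an annotated transcript are themselves a selected set.

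The 701 introns lie in 456 genes, and 2 have no annotated host. Of the hosts, 322 hold 1 of the introns, 71 hold 2 and 63 hold 3 or more. In 696 cases the intron is identical to one of the annotation, and 667 lie in coding sequence, 13 in 5′ untranslated regions, 7 in 3′ untranslated regions and 9 in non-coding transcripts. First introns made up 3.75% of the 667 and last introns 14.7%, against 6.48% and 11.2% of 35483 other annotated coding introns of 50 to under 300 nt. The transcripts of the 667 held a median of 11 introns, against 15 for the others, and both shares depend on that number. The length ran from 56 to 299 nt with a median of 130 nt. An exon of an annotated transcript spans 367 of the introns, an exon of the opposite strand overlaps 39, and another exon of the same strand reaches into 172, so that reads of a neighbouring transcript may count towards their levels. Without the introns that an antisense or other same-strand exon touches, 495 remained, of which 459 had a lower mean after smoke. The introns are not independent: 189 are next to another one in the same transcript, and 2 in Renbp overlap each other.

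The libraries differed in how many events had a level at all. Of 10376 events, 398, 7 and 1 had none in room air libraries 1, 2 and 3, and 4169, 189 and 50 had none in smoke libraries 1, 2 and 3. Among all 1315 retained introns under 300 nt, smoke library 1 lacked a level for 471, smoke library 2 for 21 and no other library for more than 32. The table gives no read counts, so the depth behind a level is unknown. All 8 macrophage markers were listed in the authors' deposited expression table, with group means of 401 to 23168 normalized counts in room air. Of the markers of other cells, 1 of 6 for neutrophils and 1 of 4 for erythroid cells were listed in the authors' deposited table, both at 0 in room air, and 2 of 4 each for B and dendritic cells, which summed to 0.251 and 0.522 normalized counts in room air. The 4 stromal markers summed to 41.3 normalized counts in room air and 8.87 after smoke in that deposited table, and none of the markers was called; their part in the results was not tested.

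Mean retention was lower after cigarette smoke in 653 of the 701 short introns (93.2%), against 92.5% of the 1992 retained introns with 6 levels. The median difference was -3.81 percentage points over all 701. Smoke library 1 listed most of the introns at 0, and so did smoke library 2, though not always the same introns. The mean level over the 701 introns was 8.05%, 8.97% and 7.23% in room air libraries 1, 2 and 3 and 2.74%, 3.98% and 5.21% in smoke libraries 1, 2 and 3. No smoke library reached the lowest room air library, and the group means were 8.08% ± 0.873 and 3.98% ± 1.24 (SD, n = 3 each), a difference of -4.11 percentage points. The smoke libraries differed from each other by more than the room air libraries did. Against the room air mean, smoke library 3 alone was different by -2.87 percentage points.

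The libraries also differed in how many of the introns were listed at 0. That share was 15.3%, 3.99% and 11.4% in the room air libraries and 70.6%, 51.9% and 13% in the smoke libraries. Smoke libraries 1 and 2 stood apart from the other 4, and smoke library 3 lay within the range of room air. Among the introns above 0 in a library, the median level was 7.69%, 7.69% and 6.58% in room air and 7.69%, 6.67% and 4.68% after smoke. These medians are over different introns in each library and are not compared. The library with the most introns at 0 is also the one with the most events without a level, and the part of this in the lower retention was not tested.

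**Figure D1:**
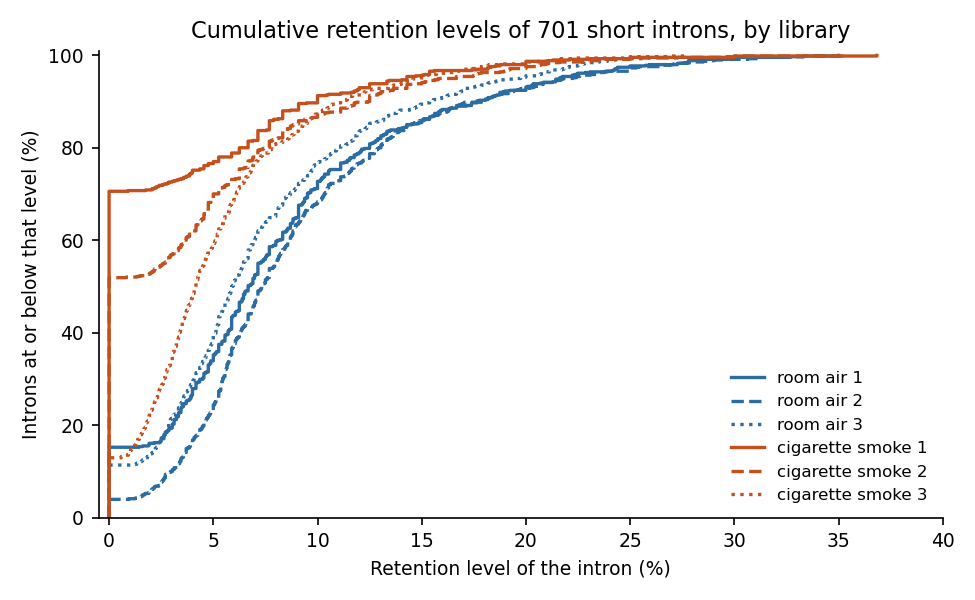
Cumulative share of the 701 introns (vertical axis, %) at or below a retention level (horizontal axis, %), with 1 line per library, blue for room air and orange for cigarette smoke. The lines of smoke libraries 1 and 2 start at 70.6% and 51.9% because that share of introns is listed at 0, whereas smoke library 3 starts at 12.98%, within the room air range, and then lies to the left of the room air lines.

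The introns above 0 in all 6 libraries are a set chosen by their levels in the smoke libraries, with higher levels in room air than the rest, and are given as a description. There were 149 of them, and their mean level was 14.9%, 15.7% and 13.2% in room air and 10.2%, 10.8% and 10.2% after smoke. All 3 smoke libraries were below all 3 room air libraries and close to each other. The group means of 14.6% ± 1.24 and 10.4% ± 0.364 (SD, n = 3 each) differed by -4.21 percentage points, against -4.11 over all 701. The smoke mean was 0.711 of the room air mean, against 0.492 over all 701, and 8.72% of the 149 were lower at an unadjusted p under 0.05 (limma), against 26.7%. Of these 149 introns, 132 had a lower mean after smoke.

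Intron by intron, 653 of the 701 (93.2%) had a lower mean after smoke, against 92.5% of the retained introns with 6 levels, and 48 a higher one. In 273 introns (38.9%) every smoke library was below every room air library, against 19.3% of all 5933 events with 6 levels and 38.7% of the 1992 retained introns with 6 levels. The share among the short introns is thus about that of retained introns in general. The reverse order was found in 1 intron, that of Maz, against 3.84% of the events and 0.251% of the retained introns. Smoke library 3 taken alone was below all room air libraries in 363 introns (51.8%), against 35% of the events and 51.3% of the retained introns with 6 levels, and above them all in 26 (3.71%), against 14.4% and 5.02%.

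**Figure D2:**
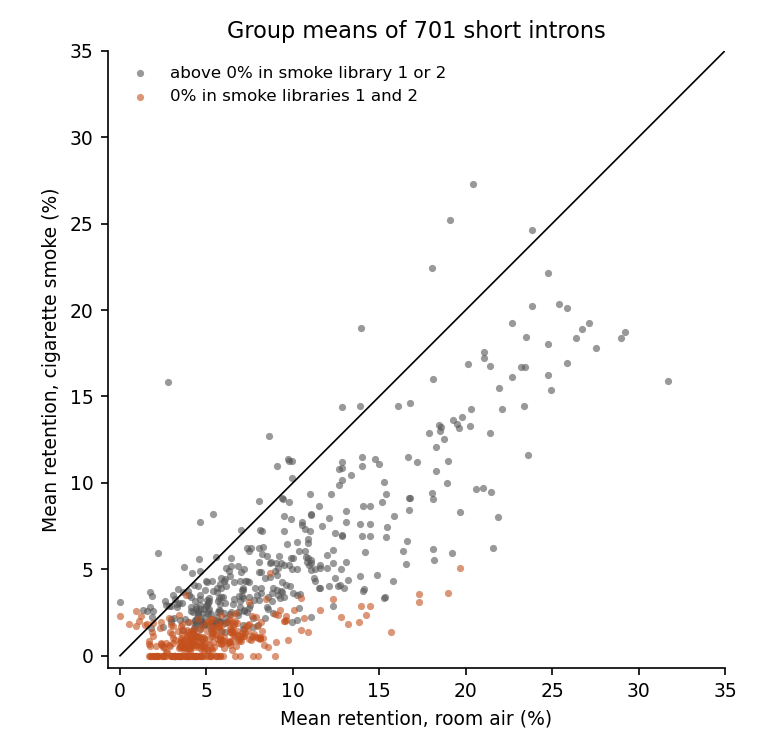
Mean retention level of each of the 701 introns in room air (horizontal axis, %, n = 3) and after cigarette smoke (vertical axis, %, n = 3), with a line of equal levels and orange points for introns at 0% in smoke libraries 1 and 2. Below the line lie 653 points, orange and grey, and above it 48.

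The test of each event was limma on the log2 odds of retention, with p-values adjusted over all 10376 events. No short intron passed at an adjusted p under 0.05, and no event of the whole table did; the lowest adjusted p among the short introns was 0.128 (limma). At an unadjusted p under 0.05, 187 introns were lower after smoke (26.7%), against 9.29% of all events, 20.8% of all retained introns and 25.7% of those with 6 levels, and 1 intron, in Maz, was higher, against 1.55% of all events. The share is close to that of retained introns with 6 levels. The median difference was -1.35 log2 odds over the 701 introns and -0.48 over all events. Of the 188 introns at an unadjusted p under 0.05, 151 were listed at 0 in both smoke library 1 and smoke library 2. Leaving out smoke library 3 gave 155 introns (22.1%) with an adjusted p under 0.05 (limma), against 10.9% of all events and 21.5% of the retained introns with 6 levels. Leaving out both smoke libraries 1 and 2 gave 1, Yif1b, which was higher in the remaining smoke library, against 1.43% and 0.301%. The count at an unadjusted p under 0.05 was 116 without room air library 1, 92 without room air library 2, 113 without smoke library 1 and 114 without smoke libraries 1 and 2. In the authors' deposited JuncBASE table, 18 of the introns (2.57%) had an unadjusted p under 0.05, against 4.15% of all events, and the corrected p was 1 for every one of the 701.

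The 10 introns with the lowest p were all listed at 0 in the 3 smoke libraries and above 0 in the 3 room air libraries. The lowest was the 92 nt intron of Mpdu1, which encodes a protein needed for the use of dolichol-linked sugars in glycosylation, with levels of 6.45%, 6.67% and 10% in room air libraries 1, 2 and 3. The groups did not overlap, and the difference was -3.21 log2 odds (SE 0.45, unadjusted p = 0.000226, adjusted p = 0.128) in limma. Sgcb, which encodes a sarcoglycan, had 9.09%, 9.38% and 5.41% in its 274 nt intron in room air, a difference of -3.25 log2 odds (SE 0.46, unadjusted p = 0.000254, adjusted p = 0.128) in limma. Nr1h2, which encodes the oxysterol receptor LXR beta, had 6.06%, 6.12% and 5.13% in its 76 nt intron, a difference of -2.84 log2 odds (SE 0.42, unadjusted p = 0.000341, adjusted p = 0.141) in limma. The SD of the 3 room air levels was 1.99 for Mpdu1, 2.21 for Sgcb and 0.555 for Nr1h2 (percentage points), against a median of 2.61 over the 701 introns. The smoke levels, all at 0, added no spread of their own to the SEs. The size of such a difference also depends on the constant added to the level before the odds are taken. For Mpdu1 it was -4.13 log2 odds with 0.5 percentage points and -1.44 with 5.

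In room air, the remaining 7 had levels between 3.33% and 15.6%. They lie in Adcy7, an adenylyl cyclase gene, in Aurkb, which encodes a kinase of mitosis, in Plod3, a lysyl hydroxylase gene, and in Ehmt2, which encodes a histone methyltransferase. The others lie in Sh2b3, which encodes an adaptor that restrains cytokine signalling, in Ngdn, and in Gnptg, which encodes a subunit of the enzyme that starts the mannose phosphate tag of lysosomal enzymes. The Aurkb intron had 4.55%, 4.55% and 6.67% in room air, the Plod3 intron 6.25%, 6.82% and 3.64% and the Ngdn intron 5.26%, 5.88% and 3.33%. The widest spread was that of the 70 nt Gnptg intron, with 4.55%, 15.6% and 6.67%. The adjusted p was 0.155 for each of the 7 (limma). In all, 76 of the 701 introns were listed at 0 in every smoke library, 25 of them above 0 in every room air library, and 2 were listed at 0 in every room air library.

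The largest differences in percentage points were in introns with higher levels. The 230 nt intron of Rasa4, which encodes a GTPase-activating protein of Ras, had 33.3%, 34.5% and 27.3% in room air and 13.3%, 13% and 21.3% after smoke. Every smoke library was below every room air library, and the difference of group means was -15.8 percentage points, or -1.28 log2 odds (SE 0.48, unadjusted p = 0.0339, adjusted p = 0.413) in limma. The 74 nt intron of Trmt2a, a tRNA methyltransferase gene, had 25%, 19.2% and 20.6% in room air and 0%, 5% and 13.6% after smoke. Actr1b, which encodes a dynactin subunit, had 18.8%, 25% and 13.2% in room air and 0%, 0% and 10.9% after smoke. In both, smoke library 3 was the highest of the smoke libraries and still below all room air libraries. The 200 nt intron of Tecpr1, which encodes a protein that joins autophagosomes to lysosomes, had 13.5%, 18.1% and 15.4% in room air and 0%, 0% and 4.04% after smoke, a difference of -3.49 log2 odds (SE 0.75, unadjusted p = 0.00275, adjusted p = 0.179) in limma. Pip4p1, a phosphoinositide phosphatase gene, had 16.7%, 22.4% and 12.9% in room air and 0%, 0% and 9.35% after smoke. The differences of group means in these 4 introns ran from -15.4 to -14.2 percentage points.

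A higher mean after smoke was found in 48 introns, and in 1 of them the groups were apart. That was the 73 nt first intron of Maz, which encodes a zinc finger transcription factor, with 0%, 3.57% and 4.76% in room air and 14.3%, 23.5% and 9.68% after smoke. The groups did not overlap, and the difference was 2.63 log2 odds (SE 0.82, unadjusted p = 0.0165, adjusted p = 0.33) in limma. The 91 nt intron of Mpdu1 had 0%, 0% and 0% in room air and 5%, 4.35% and 0% after smoke, in the same gene whose 92 nt intron was lower. Sipa1, which encodes a Rap GTPase-activating protein, had 5.26%, 1.41% and 0% in room air and 10.5%, 4.35% and 3.03% after smoke, and Rpp21, which encodes a subunit of ribonuclease P, had 0%, 12.5% and 3.57% in room air and 10%, 7.69% and 6.9% after smoke. In these 3 introns the groups overlapped. The 114 nt intron in the 5′ untranslated region of Rpl41 had 15.9%, 19.4% and 25.9% in room air and 25%, 35.3% and 21.7% after smoke, and the 81 nt intron of Rgs19, a regulator of G protein signalling, had 18.8%, 21.7% and 16.9% in room air and 36.8%, 20% and 18.8% after smoke. For Rgs19 the higher mean came from smoke library 1, and without smoke libraries 1 and 2 the difference was -0.026 log2 odds.

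**Figure D3:**
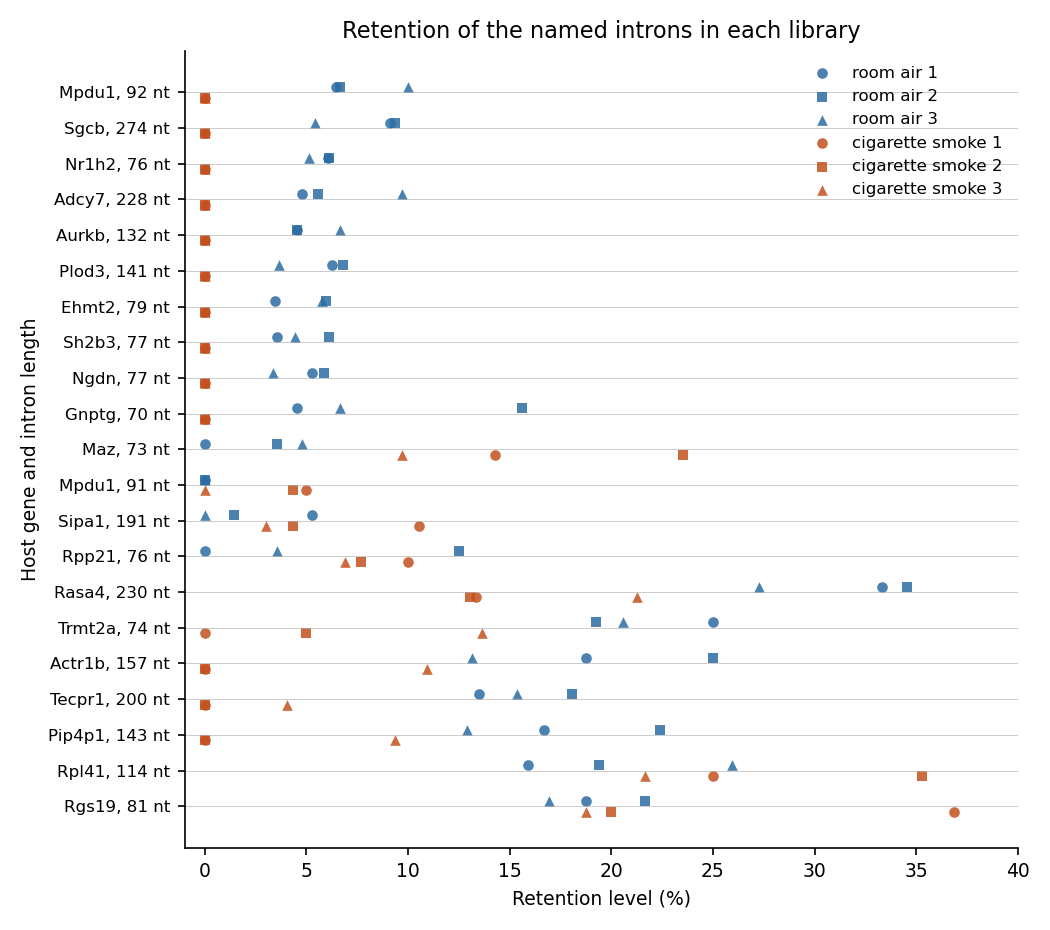
Retention level (horizontal axis, %) of the named introns, 1 row per intron with its host gene and length, blue for room air and orange for cigarette smoke, with circle, square and triangle for libraries 1, 2 and 3. In the 10 upper rows all smoke points sit at 0%, and from Rasa4 to Pip4p1 all orange points lie to the left of all blue ones.

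Among the hosts, Stab1, which encodes the scavenger receptor stabilin-1, held the most short introns with low retention, 13 of its 68 introns, with lengths from 65 to 227 nt. Hosts with many of the introns were singled out after their values were seen. The mean over the 13 was 8.29%, 8.79% and 5.88% in room air libraries 1, 2 and 3 and 2.28%, 4.92% and 4.96% in the smoke libraries. The groups did not overlap, 12 of the 13 introns had a lower mean after smoke, and in 6 the groups were apart, against 38.7% of the retained introns with 6 levels. Intron 6 had 6.98%, 6.86% and 3% in room air and was listed at 0 in all smoke libraries, with an unadjusted p of 0.00108 (limma). Intron 9 was the exception, with 6.82%, 11.6% and 2.50% in room air and 8.33%, 9.09% and 4.35% after smoke. The authors' deposited expression table lists the Stab1 transcript itself as lower after smoke, by a log2 fold change of -0.61 at an adjusted p of 0.00561 (SE 0.16). In bulk RNA, fewer cells with the transcript and less of it per cell cannot be told apart.

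**Figure D4:**
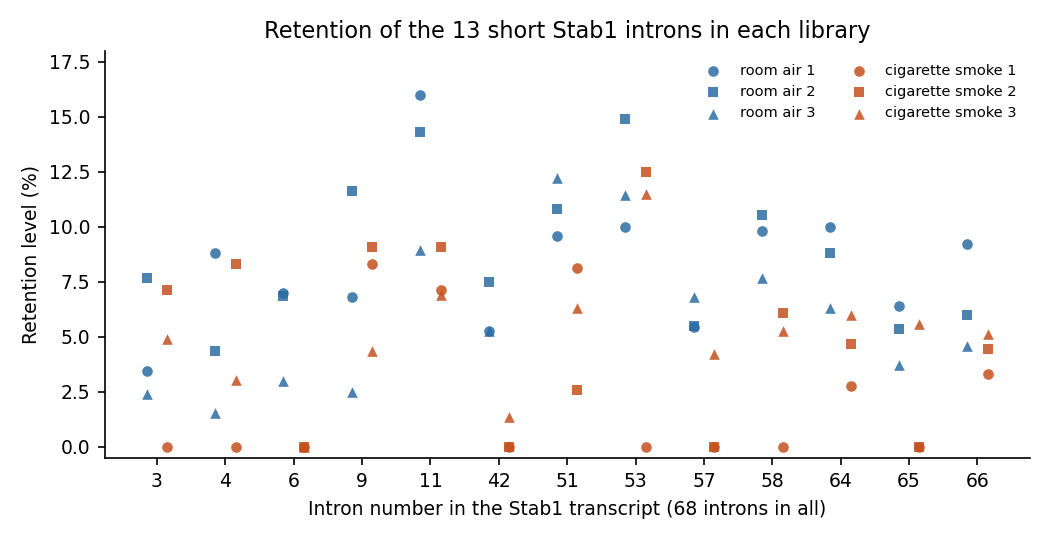
Retention level (vertical axis, %) of the 13 short Stab1 introns, ordered by intron number along the transcript (horizontal axis), blue for room air and orange for cigarette smoke, with circle, square and triangle for libraries 1, 2 and 3. The room air points lie above the smoke points at introns 6, 42 and 57, and the groups overlap at introns 3, 4 and 9.

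Other hosts with many of the introns showed the same order of group means. Gps2, which encodes a subunit of a nuclear corepressor complex, held 6, Arhgap45 held 6 and Uba7, which encodes the activating enzyme of the interferon-induced modifier ISG15, held 6, and all 18 had a lower mean after smoke. The mean over the Uba7 introns was 8.07%, 13.1% and 8.78% in room air and 4.39%, 4.37% and 5.25% after smoke. The groups were apart in 5 of the 6 Uba7 introns, 4 of the 6 in Arhgap45 2 of the 6 in Gps2 and 1 of the 5 each in Trmt2a and Tmem147, against 38.7% of the retained introns with 6 levels. Stat2, a transcription factor of the interferon response, held 5, with means of 9.31%, 12.3% and 8.61% in room air and 2.50%, 5.13% and 4.89% after smoke. Rgl2, Trmt2a, Tmem147, Dpp7 and Gas5 also held 5 each, and all 25 of these had a lower mean after smoke. Gas5, a non-coding host of small nucleolar RNAs, had the smallest relative difference of the 10 hosts, with a mean of 14.6% in room air and 10.1% after smoke, and smoke library 2 at 15.3% lay above room air libraries 2 and 3.

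Genes of innate immunity held introns in 3 lists. In the list of innate sensing and signalling, 7 of 9 introns had a lower mean after smoke and the median difference was -0.90 log2 odds. In the list of interferon-stimulated genes, 13 of 14 had a lower mean with a median of -1.23, and in antigen presentation 7 of 7 did with a median of -0.91. The median was -1.35 over the 701 introns and -0.48 over all events, so that all 3 lists were closer to 0 than the short introns as a whole. None of the introns in these or the other lists passed at an adjusted p under 0.05 (limma); at an unadjusted p under 0.05 there were 2, 3 and 1 (22.2%, 21.4% and 14.3%), against 26.7% of the 701 and 25.7% of the retained introns with 6 levels. The lists are described and not tested, and they were chosen with earlier results of these data known.

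Within these lists, Stat2 had the lowest p, with 6.98%, 10.1% and 8.51% in room air and 0%, 0% and 1.54% after smoke in its 75 nt intron. The smoke levels did not reach the room air levels (limma, unadjusted p = 0.00148, adjusted p = 0.162). Irf9, which encodes the partner of the STAT proteins in the interferon-activated complex, had 5.71%, 4.48% and 3.51% in room air and 0%, 0% and 1.45% after smoke. Ikbkb, which encodes a kinase that activates NF-kappaB, had 7.14%, 7.69% and 6.25% in room air and 0%, 0% and 3.39% after smoke. Both were listed at 0 in smoke libraries 1 and 2, and the groups were apart. The last intron of Ifi35, an interferon-induced gene, had 22.5%, 25.4% and 22.8% in room air and 11.1%, 10.3% and 13.4% after smoke, with no library at 0 and a gap of more than 9 percentage points between the groups. Unc93b1, which encodes the chaperone of nucleic acid-sensing Toll-like receptors, had 7.51%, 10.3% and 6% in room air and 2.41%, 3.74% and 4.43% after smoke. Samhd1, which encodes a dNTP hydrolase that restricts viruses, had 12.1%, 10.5% and 12% in room air and 0%, 4.76% and 6.94% after smoke. The groups were apart in these 3 as well. Introns with the lowest p of each list are the ones named, and over the whole lists the groups were apart in 4 of 9, 6 of 14 and 2 of 7 introns, against 38.7% of the retained introns with 6 levels. Of the class I antigen genes, H2-D1 had 18.6%, 20.6% and 19.8% in room air and 6.67%, 7.84% and 10.4% after smoke, and H2-T22 had 6.35%, 5.75% and 9.09% in room air and 3.7%, 3.57% and 4.1% after smoke; both belong to a family of near-identical genes, so their reads are uncertain. Psmb10, an immunoproteasome gene, had 3.03%, 6.25% and 2.27% in room air and 0%, 0% and 3.62% after smoke, where smoke library 3 lay within the room air range.

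Lysosomal and trafficking genes showed the direction of the short introns in general. A lower mean after smoke was found in 93.2% of the 701 and 92.5% of the retained introns with 6 levels. In the lysosome list 7 of 7 introns had a lower mean after smoke, with a median of -1.03 log2 odds, in the proteasome list 4 of 4 with -1.40, and in vesicle trafficking 21 of 22 with -1.37, of which 6 had an unadjusted p under 0.05 (limma; 27.3%, against 26.7% of the 701). In the lysosome and proteasome lists 0 of 7 and 0 of 4 had one. The trafficking values are near those of the short introns as a whole. Cln3, which encodes a lysosomal membrane protein, had 14.3%, 11.6% and 10% in room air and 4.76%, 6.9% and 5.76% after smoke. The peptidase gene Tpp1 had 5.79%, 5.67% and 5.21% in room air and 0%, 2.94% and 2.67% after smoke, and the mannosidase gene Man2b1 had 9.68%, 11.7% and 8.11% in room air and 0%, 6.67% and 5.41% after smoke. In these 3 the groups were apart, and Cln3 was above 0 in every library. Of the proteasome genes, Psme1 had 2.74%, 8.33% and 5.13% in room air and 0%, 0% and 4.94% after smoke, and Psma3 had 8.33%, 4.55% and 4.03% in room air and 0%, 2.99% and 3.75% after smoke. The groups overlapped for Psme1 and not for Psma3. Vps16, which encodes a subunit of the tethering complexes of endosomes and lysosomes, had 9.38%, 8.33% and 7.32% in room air and 0%, 0% and 1.79% after smoke (limma, unadjusted p = 0.00199, adjusted p = 0.177). Trappc1 had 6.25%, 3.7% and 8.93% in room air and 0%, 0% and 2.6% after smoke, and Rab24 had 9.68%, 10.9% and 7.84% in room air and 0%, 0% and 5.95% after smoke. All 3 named trafficking introns were listed at 0 in smoke libraries 1 and 2, with smoke library 3 below room air. The introns named here, too, are those with the lowest p of each list. Over the whole lists the groups were apart in 4 of 7 lysosome, 1 of 4 proteasome and 8 of 22 trafficking introns. The share was 38.7% among the retained introns with 6 levels.

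Splicing factors, whose own transcripts are often regulated through retained introns, had a lower mean after smoke in all 16 of their introns, against 93.2% of the 701 and 92.5% of the retained introns with 6 levels. The counts were 3 of 3 for SR proteins and their kinases, 10 of 10 for hnRNPs and other regulators and 3 of 3 for the core spliceosome, with medians of -1.26, -0.98 and -1.07 log2 odds, all closer to 0 than the -1.35 of the 701. Srsf1 had one of the higher levels, 35%, 27.6% and 24.3% in room air and 12.5%, 17.6% and 25% after smoke. Smoke library 3 overlapped room air library 3 there. Srsf2 had 9.09%, 6.9% and 2.7% in room air and 0%, 0% and 2.17% after smoke, and the kinase gene Clk4 had 7.5%, 8.57% and 8.33% in room air and 10%, 0% and 4.6% after smoke. The 197 nt intron of Hnrnph1 had 13.2%, 18.2% and 14.4% in room air and 0%, 4.65% and 5.56% after smoke, and Hnrnpa1 had 12.6%, 14.7% and 9.78% in room air and 6.25%, 4.26% and 7.79% after smoke. In both the groups were apart. The 210 nt intron of Hnrnpdl had 4.17%, 8% and 2.38% in room air and 0%, 0% and 0.97% after smoke. Of the spliceosome genes, Ik had 3.91%, 5.34% and 3.6% in room air and 2.38%, 0% and 2.4% after smoke, with groups apart. Ddx41 had 0%, 4.76% and 6.06% in room air and 0%, 0% and 3.7% after smoke, and Bcas2 had 0%, 13% and 0% in room air and 0%, 0% and 3.23% after smoke. Without smoke libraries 1 and 2 the Ddx41 and Bcas2 differences were 0.45 and 0.79 log2 odds. Over the whole lists the groups were apart in 1 of 3 SR protein and kinase, 7 of 10 hnRNP and regulator and 1 of 3 spliceosome introns. The share was 38.7% among the retained introns with 6 levels. In the list of RNA polymerases and general transcription, 2 of 2 introns had a lower mean, with a median of -1.20.

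Genes of translation were mixed. Of the cytosolic ribosomal protein introns 2 of 4 had a lower mean, with a median of -0.44 log2 odds, close to that of all events. Rpl22l1 had 10%, 4.55% and 4.71% in room air and 0%, 0% and 7.06% after smoke, and Rps28 had 9.09%, 5.41% and 0% in room air and 0%, 0% and 2.94% after smoke, with overlapping groups in both. Mitochondrial ribosomal proteins were lower in 7 of 7, with a median of -1.59. Mrpl24 had 8.47%, 7.29% and 7.14% in room air and 0%, 0% and 6.82% after smoke, and Mrpl53 had 9.09%, 10.5% and 22.7% in room air and 0%, 5.26% and 6.25% after smoke. The groups were apart in both, by less than 1 percentage point for Mrpl24. Over the whole lists the groups were apart in 0 of 4 cytosolic and 3 of 7 mitochondrial ribosomal protein introns. For translation factors and tRNA synthetases it was 2 of 7, against 38.7% of the retained introns with 6 levels. Mrps15 had 3.7%, 5.71% and 0% in room air and 0%, 0% and 0% after smoke, where room air library 3 was also at 0. Translation factors and tRNA synthetases were lower in 6 of 7, with a median of -1.38. Eif5 had 4%, 5.79% and 2.96% in room air and 0%, 2.44% and 1.91% after smoke, with groups apart. Eif1ad had 7.14%, 5.26% and 0% in room air and 0%, 0% and 0% after smoke, and Qars had 7.89%, 11.4% and 6% in room air and 0%, 0% and 9.84% after smoke. Smoke library 3 of Qars lay within the room air range, and without smoke libraries 1 and 2 its difference was 0.26 log2 odds.

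In the list of cell cycle and DNA replication, 8 of 11 introns had a lower mean after smoke, with a median of -1.27 log2 odds and 3 at an unadjusted p under 0.05 (limma; 27.3%, against 26.7% of the 701). Cdc20, which encodes an activator of the anaphase-promoting complex, had 8.33%, 2.7% and 6.25% in room air and 0%, 0% and 0% after smoke. Cdc25b, a phosphatase gene of mitotic entry, had 8.06%, 8.43% and 13.3% in room air and 0%, 3.12% and 2.78% after smoke. The groups were apart in 5 of the 11 introns, against 38.7% of the retained introns with 6 levels. Of the 3 short Aurkb introns, those of 84 and 140 nt had overlapping groups.

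Longer introns gave similar differences. Introns of 300 to under 1000 nt with low retention, 527 in number, had group means of 8.3% ± 1.08 and 3.76% ± 1.56 (SD, n = 3 each), a difference of -4.54 percentage points, and 526 introns of 1000 nt or more had 7.75% ± 1.19 and 3.57% ± 1.57 (SD, n = 3 each), a difference of -4.18. The difference of the short introns, -4.11, was smaller in size than both, and no test of a difference between the sets was made. The 238 introns retained at a mean of 25% or more, whatever their length, had no zeros, and their mean level was 72.1%, 72.4% and 71.1% in room air and 67.8%, 67.6% and 68.1% after smoke. The groups did not overlap, and the difference of -4.04 percentage points corresponds to a smoke mean of 0.944 of the room air mean, against 0.492 for the short introns. At an unadjusted p under 0.05 (limma), 8 of the 238 (3.36%) were lower, against 26.7% of the short introns.

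**Figure D5:**
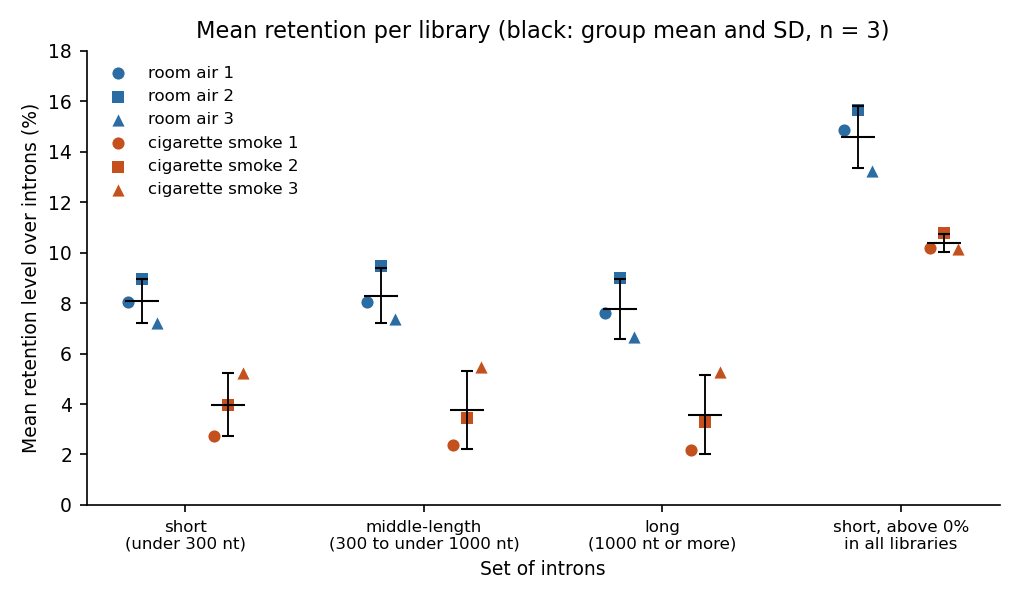
Mean retention level over introns (vertical axis, %) in each library for 4 sets of introns (horizontal axis: short, middle-length and long introns with low retention, and the short introns above 0% in all libraries), blue for room air and orange for cigarette smoke, with the group mean and SD in black (n = 3). In each set every smoke library is below every room air library.

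Within the short introns, the difference was larger in size from 120 nt on, and this was not tested. It was -3.69 percentage points over 108 introns of under 80 nt and -3.65 over 216 of 80 to 119 nt. Over 195 introns of 120 to 199 nt it was -4.40, and over 182 of 200 nt or more it was -4.58. The introns were also split by the mean over all 6 libraries, the value that chose them and that limits how large a difference can be, so that these values are a description. The difference was -3.23 over 414 introns with a mean under 5%, -4.96 over 174 of 5% to under 10% and -5.98 over 113 of 10% or more. In these 3 sets the smoke mean was 0.306, 0.484 and 0.673 of the room air mean. The share listed at 0 in smoke library 1 was 90.6%, 56.9% and 18.6% in the same order.

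Host expression went with the zeros. The introns were split into 4 sets of about equal size by the expression of the host. Every library had a smaller share at 0 in the set with the most expressed hosts than in that with the least expressed. In room air libraries 1, 2 and 3 the share was 21.8%, 7.47% and 17.2% with the least expressed hosts and 4.05%, 0.578% and 4.62% with the most expressed. In smoke library 3 it was 21.8% and 4.62%. In the set with the least expressed hosts, 78.7% were listed at 0 in smoke library 1 and 60.9% in smoke library 2, and in the set with the most expressed hosts 58.4% and 38.2%. The difference of group means was -3.96 percentage points in the first and -4.40 in the second, where the room air mean was 7.47% and 9.06%. Groups were apart in 46 of 174 introns (26.4%) of the first and 100 of 173 (57.8%) of the second, against 38.7% of the retained introns with 6 levels and 19.3% of the events. The part of host expression in these counts was not tested.

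The hosts themselves were mostly not called in the authors' deposited expression table. Of 455 hosts with an adjusted p there, 45 were called at an adjusted p under 0.05 (9.89%), against 7.69% of all genes tested. By direction, 39 hosts were called higher after smoke, 8.57% of the 455 against 4.15% of all genes, and 6 lower, 1.32% against 3.53%, in the authors' deposited table. Of the called hosts 86.7% were higher, against 54% of the 929 called genes in that deposited table. The hosts were also the more expressed genes there, with a median of 369 normalized counts against 144 over all genes tested, and the part of this in the counts was not tested. The median log2 fold change was 0.14 over the hosts and 0.00 over all genes in that deposited table. Retention was lower whether or not the host was called: the mean difference was -3.59 percentage points over 51 introns in hosts called higher in the authors' deposited table, -4.0 over 19 in hosts called lower and -4.13 over 626 in the others. Across 696 introns the difference in retention and the deposited log2 fold change of the host were related with Pearson r = 0.119 and Spearman rho = 0.140, where introns of a gene share its fold change and all share the libraries.

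Among the called hosts, Rnf126, a ubiquitin ligase gene, was listed in the authors' deposited table as higher after smoke (log2 fold change 0.75), and its 65 nt intron had a mean of 7.49% in room air and 6.07% after smoke. Tmem147, with 5 short introns, was higher in the authors' deposited table by 0.65 on the log2 scale (SE 0.20) at an adjusted p of 0.0230, and all 5 had a lower mean after smoke. In the opposite direction, Ccnl1, a cyclin gene linked to splicing, had a log2 fold change of -0.70 in the authors' deposited table, and its 253 nt intron had a mean of 5.30% in room air and 2.11% after smoke. Irf9, too, was called lower in the authors' deposited table (log2 fold change -0.30). Lower retention therefore stood beside both higher and lower transcript levels.

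The authors' deposited rMATS table, from a second program on retained introns, lists 106 of the 701 with the same coordinates. It compares a set 1 with a set 2 whose groups are not stated, so no direction with smoke can be read from it alone. With the false discovery rate of the authors' deposited table held under 0.05, 26 of the 106 were called (24.5%), against 14.5% of all its introns, and all 26 were higher in set 1, as were 95% of the 565 introns called in the whole deposited table (13.8% of all its introns were called and higher in set 1). The direction of the short introns in that table was thus near that of its calls in general. Of the 106, 96 were higher in set 1, and 94 of these had a lower JuncBASE mean after smoke. Across the 106 introns the rMATS and JuncBASE differences were related with Pearson r = -0.707 and Spearman rho = -0.620; both programs may have read the same libraries, so this is no independent measurement.

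The lowest false discovery rate in the authors' deposited rMATS table was that of the Tecpr1 intron, 3.26e-07, with a difference of 11.3 percentage points. Rasa4 had the largest difference of the 5 lowest in that deposited table, 17.4 percentage points. Ctsa, which encodes the lysosomal protease cathepsin A, differed by 4.7 percentage points in the authors' deposited rMATS table, and its JuncBASE levels were 10.6%, 11.1% and 6.79% in room air and 3.97%, 5.65% and 6.17% after smoke. Maged1 differed by 4.8 in the authors' deposited table, with JuncBASE levels of 9.09%, 8.82% and 6.06% in room air and 0%, 2.7% and 2.63% after smoke. In both introns the JuncBASE groups were apart. Pirb, an inhibitory receptor gene with close paralogs whose reads are uncertain, differed by 13.4 in the authors' deposited table, with JuncBASE levels of 22.4%, 29.4% and 25.8% in room air and 18.5%, 23.7% and 18.2% after smoke, where smoke library 2 was above room air library 1.

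At the limits of the rule, the introns just inside had the highest means: the 147 nt intron of Wbp1 had 20%, 33.3% and 18.2% in room air and 25%, 21.1% and 27.8% after smoke, that of Nagk, a kinase gene of amino sugar metabolism, had 32.4%, 31.3% and 23.9% in room air and 15%, 21.2% and 20% after smoke, and the Rpl41 intron was the third. Just above the limit, the intron of Ssna1 had 26.9%, 34.3% and 17.9% in room air and 30%, 22.7% and 19.6% after smoke. The means of the other two just outside, in Lilr4b and Tmem208, were 25.6% and 25.7%. The longest members were introns of 299 nt in Idua, with 0%, 3.92% and 6.67% in room air and 0%, 0% and 2.7% after smoke, and Trappc2l, with 8.33%, 7.35% and 5.49% in room air and 0%, 3.03% and 7.32% after smoke. Just over 300 nt, the Card9 intron of 301 nt had 3.23%, 6.35% and 4.44% in room air and 0%, 4.76% and 1.47% after smoke, and the Emc4 intron of 302 nt had 7.69%, 5.88% and 4.35% in room air and 0%, 0% and 0% after smoke. The shortest member was a 56 nt intron of Hnrnph1, with 9.52%, 5.78% and 7.02% in room air and 0%, 4.35% and 3.91% after smoke, followed by introns of 65 nt that include Stab1, with 8.82%, 4.35% and 1.56% in room air and 0%, 8.33% and 3.03% after smoke, and the fatty acid transporter gene Slc27a1, with 22.4%, 26.5% and 25.9% in room air and 17.4%, 17.6% and 11.1% after smoke. Among the introns near the limits, the groups were apart for Nagk, Hnrnph1 and Slc27a1 inside them and for Lilr4b, Tmem208 and Emc4 outside them, with every smoke library below every room air library.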

How the data were processed

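Splicing was measured by RNA sequencing in 6 libraries, 3 per group, with groups and replicate numbers taken from the sample titles. Per the labels' protocols, total RNA went into libraries made with a directional kit. The submitters' processing notes name STAR, DESeq2, SAMtools 1.9, bedtools 2.27.1 and the build mm10, without versions for the first 2 and without roles. The authors deposited JuncBASE levels as percent inclusion per event and library, with p-values of their own, and an rMATS table of retained introns with false discovery rates and a difference, a score given as a fraction, of which 6 per-sample columns were not used. The authors' deposited expression table gives signal as group means of size-factor-normalized counts from a fit of 24 libraries, with log2 fold changes on the log2 scale and adjusted p-values. How a level was reckoned from reads is not given in the sources used here.

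Intron length was taken from the exclusion junction. The level p was turned into log2((p + 1)/(100 - p + 1)), and limma 3.58.1 (R 4.3.3) tested the group difference of all 10376 events at once, with p-values adjusted by Benjamini-Hochberg at a threshold of 0.05; the fit drops a library without a level. The test was checked on simulated data. With 3 against 3 libraries the smallest two-sided permutation p is 0.1, so none is given. Positions, splice sites and sequences came from GENCODE M21 (GRCm38), with splice sites scored over 3 exon and 6 intron bases at the 5′ end and 20 intron and 3 exon bases at the 3′ end. The members and 17 gene lists were chosen with earlier results of these data known; 15 lists held introns, and those of nonsense-mediated decay and of zinc finger genes held none, and the result of 1 list is not reported here. Introns were named by rule: the 10 lower and 4 higher with the lowest p, 1 per gene; the 5 largest declines among introns with groups apart and the 3 largest rises; the 5 lowest rMATS rates; those next to the limits and the 3 shortest; and up to 3 per list with 3 or more introns. Alternatives covered the pseudocount, the events fitted, the variance prior, the limits of the rule, each library left out and a replicate block.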

Additional observations from a re-analysis of the deposited data

How the results depend on the processing

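The count of 188 introns at an unadjusted p under 0.05 (limma) was 75 over events with a mean of 5% to 95%, where 287 of the introns were tested, 114 without smoke libraries 1 and 2, an alternative chosen after seeing the data, and 92 to 271 when each library was left out in turn. The count of 0 at an adjusted p under 0.05 became 3 with only events that have 6 levels, 1 without smoke libraries 1 and 2, and 0 to 155 with each library left out. The labels do not say whether same-numbered libraries are paired. Deviations of same-numbered libraries from their group means correlated at 0.02, -0.04 and -0.09, which cannot show whether they are. With a replicate block the unadjusted count was 120. The mean difference of -4.11 percentage points was -5.23 between medians, -2.87 without smoke libraries 1 and 2, and -4.72 to -3.49 with each library left out. The count of 273 with groups apart was 69 of the 149 introns above 0 in all libraries, 100 of 173 with the most expressed hosts, where fewer introns enter, and 295 to 376 with each library left out. In the authors' deposited tables, the 45 called hosts became 18 at an adjusted p under 0.01 and 14 at a fold of at least 1.5, and the 26 rMATS calls became 16 at a rate under 0.01. Where no such construction gives the reason, the cause was not tested. Over 67 named introns and 969 alternatives, 928 kept their direction and side of the threshold, 28 passed an adjusted p of 0.05, all of them with only events that have 6 levels or without smoke library 3, and 13 reversed. Without smoke libraries 1 and 2 the reversed differences in log2 odds were -0.026 for Rgs19, 0.13 for Idua, 0.067 for Trappc2l, 0.012 for Psmb10, 0.20 for Rpl22l1, 0.45 for Ddx41, 0.79 for Bcas2 and 0.26 for Qars. Wbp1 reversed to -0.040 without room air library 1, -0.12 without room air library 3 and -0.024 without smoke library 3 (range -0.12 to 0.44 with each library left out), Bcas2 to 0.71 without room air library 2 (range -1.34 to 0.71) and the 65 nt Stab1 intron to 0.27 without smoke library 1 (range -1.40 to 0.27). When a group is left with 1 library, that library is assumed to vary like the others. The depth behind each level is unknown, so how low a level could be detected in a library cannot be given.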
